A study of Mus musculus with 25 samples.

Results

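RK-701, a small-molecule inhibitor of the histone methyltransferases G9a and GLP, was given alone to mouse embryos made by somatic cell nuclear transfer (SCNT), and its effect on RNA was read against embryos that received no inhibitor. The comparison used 5 of the 25 libraries of the series, 3 with RK-701 (CC_G, 1 µM for 24 h) and 2 untreated controls (CC_cont), which were chosen by their labels and not by any measured value. In both groups the nuclei of wild-type cumulus cells from adult BDF1 females (C57BL/6N × DBA/2) had been placed in enucleated BDF1 oocytes. Latrunculin A, a drug that blocks actin polymerisation, took the place of cytochalasin B, so the control was not free of drug. Pools of 5 to 10 embryos at the 2-cell stage, 28 to 29 h after activation, gave 1 library each, with poly(A) RNA amplified by SMART-Seq. The sources do not say whether libraries of a group came from separate days or donors. The p-values therefore measure only spread between pools, which was estimated in 1 fit over all 25 libraries and not from these 5 alone. Other libraries of the series entered as reference levels, namely embryos from in vitro fertilisation (IVF, BDF1, 4 libraries), SCNT embryos made in cytochalasin B (SCNT_cont, 2), and cumulus cell clones made in latrunculin A with the histone deacetylase inhibitor trichostatin A (TSA, 25 nM for 8 h, 2), with TSA and RK-701 (2), with the G9a/GLP inhibitor A366 at the same 1 µM for 24 h (2), or with TSA and A366 (2).

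G9a (EHMT2) and GLP (EHMT1) form a complex that places 1 or 2 methyl groups on lysine 9 of histone H3, marks of silent genes in euchromatin that other enzymes can extend to trimethylation. In a clone the donor nucleus brings its somatic pattern of this methylation into the oocyte. At the 2-cell stage the mouse embryo destroys most of the RNA stored in the oocyte and starts its own major wave of transcription, so RNA at this stage is a mixture of oocyte leftovers and new transcripts, and total RNA levels cannot tell these sources apart.

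The 5 libraries held 9259726 to 16604899 read pairs on genes. Levels are given in CPM, the read pairs of a gene scaled to the total of its library with TMM factors. A gene was called when edgeR's quasi-likelihood test gave a Benjamini-Hochberg adjusted p under 0.05 and its fold change was over 2. The replicates were uneven, as the 3 RK-701 libraries correlated with each other at 0.968 to 0.982 (Pearson's r over 8947 genes, log scale) and the CC_cont libraries at 0.903. CC_cont replicate 1 was closer to RK-701 (0.939 to 0.947) than to its own replicate, and CC_cont replicate 2 was at 0.860 to 0.868 with RK-701. With the untreated SCNT_cont libraries, CC_cont replicate 1 was at 0.941 and 0.966 and CC_cont replicate 2 at 0.942 and 0.913. These correlations do not settle which control is the more typical. Over the called genes, the median levels in SCNT_cont were nearer to CC_cont replicate 1 than to replicate 2, as given below. Those genes were chosen by the difference between CC_cont and RK-701, so their levels do not settle it either. Since leaving out CC_cont replicate 2 cost the most calls, many of the results that rest on it are given without it as well. Of the defining markers of cumulus cells, *Inha* had 0 reads in all 5 libraries, *Amh*, *Foxl2*, *Fshr* and *Lhcgr* had at most 7 in any, and *Cyp19a1*, the estrogen-producing aromatase, had 10 to 30 reads. *Gata4*, a marker of later embryo stages that granulosa cells also make, had 705 to 877 reads. The summed level of 34 cumulus and granulosa genes was 266 to 307 CPM in CC_cont and 169.8 to 191 CPM with RK-701, and its part in the results was not tested.

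Of 25794 autosomal genes tested, 863 (3.35%) were called with RK-701 alone, 447 raised (1.73%) and 416 lowered (1.61%). The median level over the 5 libraries was 24.3 CPM for raised, 12.1 CPM for lowered and 2.18 CPM for all tested genes. Of 5 equal groups by level, raised genes were 0% of the lowest and 3.86% of the highest. The shares over all genes given here and below were not matched for level. Raised genes included many transcripts that the oocyte stores and members of the *Zscan4* and *Obox* families that are switched on at the 2-cell stage. Of 53 genes of DNA replication, 3 were raised. Lowered genes included parts of the ribosome, the respiratory chain and the spliceosome, and the nucleosome-binding protein *Hmgn1*. The numbers were sensitive to the libraries used. A fit of the 5 libraries alone, which took the spread from them, gave 121 raised and 91 lowered genes. Without CC_cont replicate 2 the counts fell to 89 raised and 88 lowered, of which 64 and 67 were shared with the calls above, while 447 of the 447 and 415 of the 416 fold changes kept their sign. Without CC_cont replicate 1 they rose to 1285 and 983. With SCNT_cont as the control, 898 genes were called (3.48%), 566 raised (2.19%) and 332 lowered (1.29%), of which 217 and 147 were shared with the calls above. A set of 53 raised and 43 lowered genes was called whichever of the 5 libraries was left out.

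The targets themselves were checked first. *Ehmt2*, which encodes G9a, had 30.8 and 30.4 CPM in CC_cont and 31.7, 23.7 and 28.7 CPM with RK-701, and its log2 fold change of −0.13 ± 0.22 (SE) did not pass the test (adjusted p = 0.81, edgeR quasi-likelihood). *Ehmt1*, which encodes GLP, had 59.7 and 103 CPM in CC_cont and 43.4, 62.1 and 43.3 CPM with RK-701, so the groups overlapped. Its log2 fold change of −0.71 had an adjusted p of 0.0459 but was under the 2-fold threshold, and the adjusted p was 0.67 without CC_cont replicate 2. An inhibitor of the enzymes' activity need not alter their RNA. None of the 24 tested H3K9 methyltransferases and partner genes was called. Among 13 H3K9 demethylases, 1 was raised and 1 lowered (7.69% each), with a median log2 fold change of −0.06. *Kdm4a*, which removes trimethyl marks, rose from 40.2 and 20.2 CPM to 60.7, 71.7 and 92.1 CPM (log2 fold change 1.30 ± 0.27, adjusted p = 0.0051 by edgeR, 0.17 without CC_cont replicate 2). *Riox1*, a ribosomal oxygenase also described as a histone demethylase, fell from 16.6 and 37.0 CPM to 11.1, 9.82 and 14.5 CPM (−1.17 ± 0.28, adjusted p = 0.0115), and without CC_cont replicate 2 no gene of the list was called.

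Transcripts stored in the oocyte made up the list with the largest share of raised members after the *Zscan4* and *Obox* families. Of its 49 tested genes, 17 were raised (34.7%, beside 1.73% of all genes) and 0 lowered, with a median log2 fold change of 0.84 beside −0.01 over all genes. Without CC_cont replicate 2, 7 were raised and the median was 0.65, and against SCNT_cont in place of CC_cont 11 were raised with a median of 0.80. In 34 of the 49 genes every RK-701 library lay above both controls, beside 16% of all genes. The summed level of the list was 12855 to 17405 CPM in CC_cont, 25066 to 31825 CPM with RK-701 and 39472 to 44486 CPM in IVF embryos, so the RK-701 libraries lay between the clones and the fertilised embryos without overlap.

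*Wee2*, an oocyte kinase that restrains CDK1 and is needed for exit from meiosis, lies at chr6:40439088-40466813 (mm10). It had 411 and 319 CPM in CC_cont and 1225, 858 and 1050 CPM with RK-701. All treated libraries were above both controls, and the log2 fold change was 1.52 ± 0.19 (adjusted p = 6.8e-05, edgeR), and 1.35 without CC_cont replicate 2 (adjusted p = 0.0045). *Btg4*, an adaptor that recruits the CCR4-NOT deadenylase to maternal mRNA, rose from 823 and 674 CPM to 2118, 1283 and 1970 CPM (log2 fold change 1.26 ± 0.20). *Oosp1*, an oocyte-secreted protein gene, rose from 234 and 220 CPM to 672, 511 and 589 CPM (log2 fold change 1.38 ± 0.21). *Omt2a* and *Omt2b*, a pair of oocyte transcripts, rose by 1.22 and 1.49 on the log2 scale, *Omt2b* from 1189 and 769 CPM to 3107, 2493 and 2658 CPM. For all 5 genes the groups did not overlap, and all 5 were still called without CC_cont replicate 2 apart from *Omt2a*, whose log2 fold change was then 0.95, just under the 2-fold threshold.

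The largest block of neighbouring raised genes was the *Tcl1* cluster, which encodes TCL1, a co-activator of the AKT kinase, and its relatives, all expressed in the oocyte and early embryo. Between chr12:105146014 and chr12:105222793 (mm10, GENCODE M21), 6 tested genes that follow each other were all raised. *Tcl1* had 796 and 279 CPM in CC_cont and 3733, 1932 and 2861 CPM with RK-701, a log2 fold change of 2.40 ± 0.46. The lowest treated library was above the highest control, but the controls differed from each other by more than 2-fold, and without CC_cont replicate 2 the change was 1.84 with an adjusted p of 0.093. *Tcl1b2* rose from 229 and 116 CPM to 661, 499 and 544 CPM (log2 fold change 1.72 ± 0.24), and this call held without CC_cont replicate 2 (1.31, adjusted p = 0.013). *Tcl1b1* rose by 1.51 on the log2 scale, and *Tcl1b3*, *Tcl1b4* and *Tcl1b5*, which were named after their values were seen because they complete the run, rose by 1.86, 1.72 and 2.04. These 4 lost their calls without CC_cont replicate 2 (adjusted p of 0.11, 0.12, 0.21 and 0.079), so that *Tcl1b2* alone of the 6 kept its call. The *Tcl1b* genes are related copies, and how alike their transcripts are was not measured here. Any reads that could not be placed uniquely were lost, so the share of each copy is uncertain.

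DNA upstream of the RefSeq starts of these genes is shown because all the copies were raised. Each line gives 130 bases of the mm10 plus strand, from 150 to 21 bases before the RefSeq start (GRCm38.p6). The capitals mark a 22-base run that these windows share, which was found in 5 of the 14469 upstream windows of tested genes, all 5 of them *Tcl1b* genes. The stretch of *Tcl1b2* lies 1005 bases from the start of the gene in GENCODE and inside it, outside annotated exons, and that of *Tcl1b4*, the fifth window, is not shown because it overlaps an annotated exon. A shared run is a description of copied sequence, not a site.
Tcl1b2 (chr12:105146869-105146998, plus strand): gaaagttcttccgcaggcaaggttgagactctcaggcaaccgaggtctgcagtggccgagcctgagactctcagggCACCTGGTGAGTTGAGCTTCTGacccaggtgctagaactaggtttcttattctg
Tcl1b1 (chr12:105159554-105159683, plus strand): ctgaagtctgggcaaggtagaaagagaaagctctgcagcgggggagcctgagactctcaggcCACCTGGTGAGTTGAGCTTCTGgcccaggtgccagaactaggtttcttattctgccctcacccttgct
Tcl1b5 (chr12:105176194-105176323, plus strand): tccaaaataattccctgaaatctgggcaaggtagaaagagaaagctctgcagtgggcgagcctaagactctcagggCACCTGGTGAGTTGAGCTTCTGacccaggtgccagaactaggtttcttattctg
Tcl1b3 (chr12:105190895-105191024, plus strand): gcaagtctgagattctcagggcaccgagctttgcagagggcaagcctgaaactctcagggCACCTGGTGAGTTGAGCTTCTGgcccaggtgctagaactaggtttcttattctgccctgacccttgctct

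**Figure D1:**
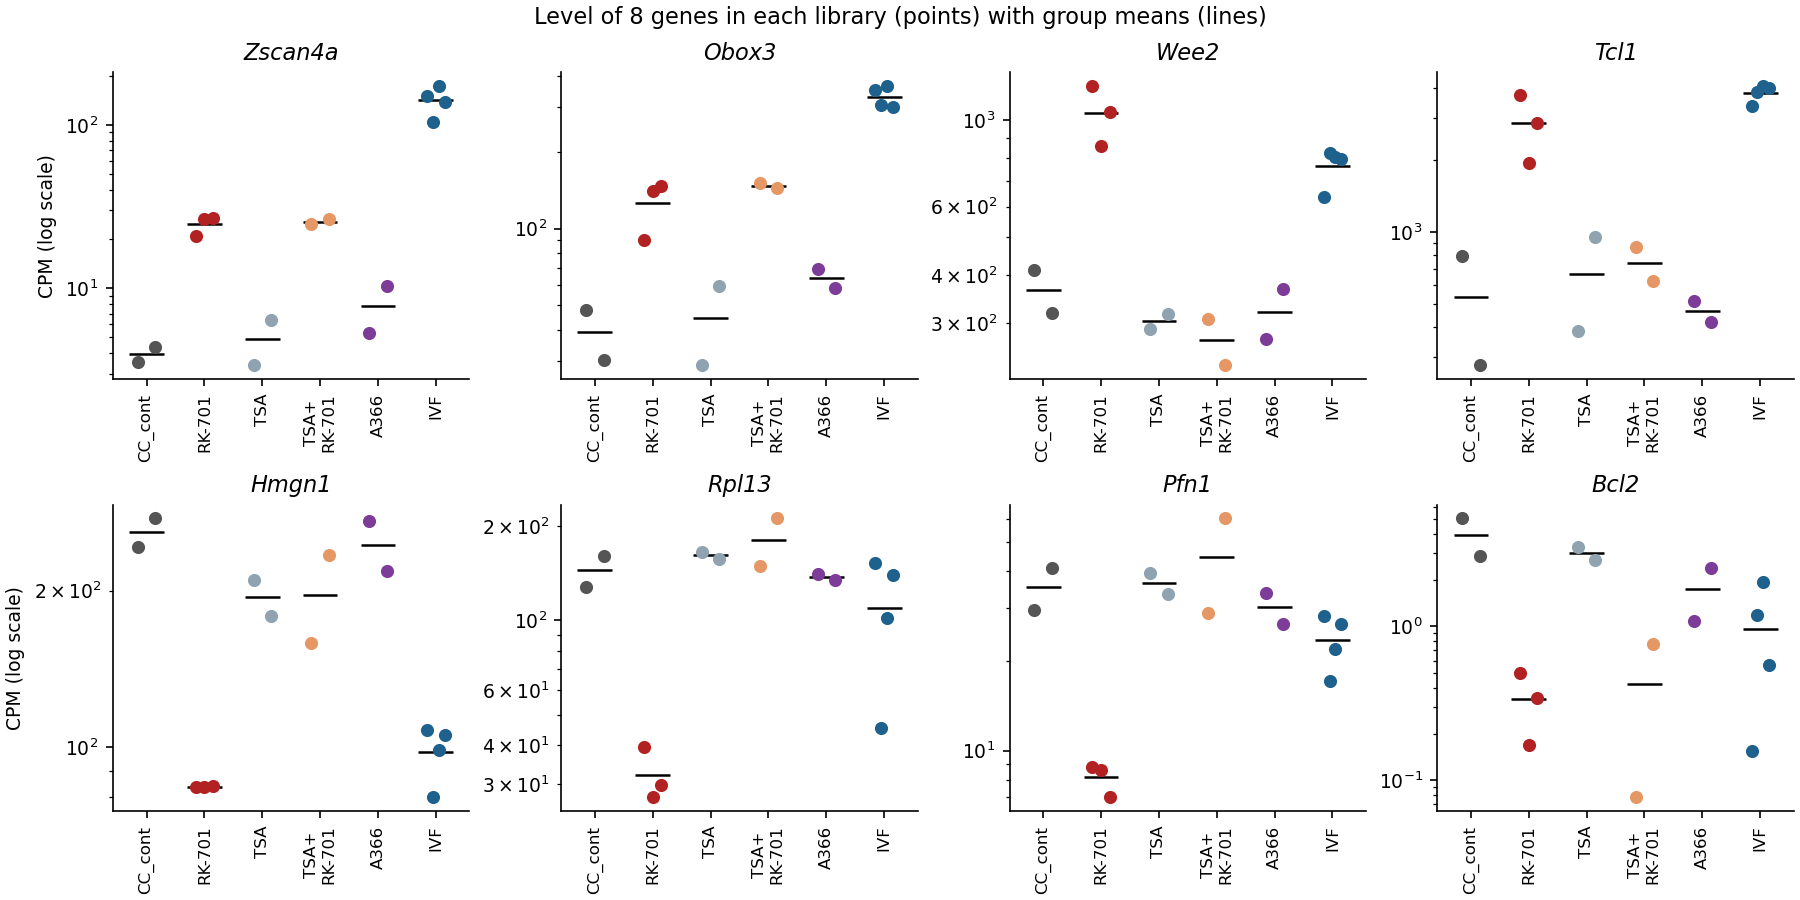
Level of 8 genes in CPM on a log axis, with 1 point per library and a line at each group mean, for the untreated and treated clones and IVF embryos. *Zscan4a*, *Obox3*, *Wee2* and *Tcl1* were higher in all 3 RK-701 libraries than in both CC_cont libraries, and *Hmgn1*, *Rpl13*, *Pfn1* and *Bcl2* were lower in all 3.

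The *Zscan4* genes encode zinc finger proteins expressed in a burst at the 2-cell stage. All 6 tested members had a positive log2 fold change, with a median of 2.42, and 3 of the 6 were raised. *Zscan4a* (chr7:10794242-10799057) had 3.53 and 4.38 CPM in CC_cont and 20.9, 26.7 and 27.1 CPM with RK-701, a log2 fold change of 2.66 ± 0.33 (adjusted p = 6.8e-05, edgeR). The groups lay far apart, yet IVF embryos held 104 to 173 CPM, so the treated clones did not reach the fertilised level. *Zscan4d* had 10.9 and 5.12 CPM in CC_cont and 18.4, 42.7 and 57.1 CPM with RK-701 (log2 fold change 2.26 ± 0.43). *Zscan4b* had 0 reads in both controls and 6, 11 and 9 reads with RK-701, which is at least 3.12-fold higher at a floor of 3 reads per library. Without CC_cont replicate 2 the only member still called was *Zscan4a* (2.81, adjusted p = 0.0018), while the list median was 1.84. The members are near-identical, and their counts carry the same uncertainty as those of the *Tcl1b* genes.

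The *Obox* genes encode oocyte and early embryo homeobox proteins. Those raised with RK-701 alone were *Obox1*, *Obox3* and the copies *Obox3-ps1* to *Obox3-ps6*, which are named as pseudogenes. The counts of this family are therefore not counts of separate protein genes. Of 22 tested, 8 were raised (36.4%) and 0 lowered, with a median log2 fold change of 1.03, and without CC_cont replicate 2 the count was 2 with a median of 0.78. *Obox3* had 47.7 and 30.4 CPM in CC_cont and 90.4, 141 and 147 CPM with RK-701 (log2 fold change 1.68 ± 0.26, adjusted p = 0.00043), against 300.1 to 363 CPM in IVF embryos. Its neighbour *Obox3-ps6* rose from 8.25 and 6.98 CPM to 22.2, 35.5 and 31.9 CPM (log2 fold change 1.96 ± 0.34). Both stayed called without CC_cont replicate 2 (1.40 and 1.85, adjusted p = 0.030 and 0.040). *Obox1*, the next tested gene on that side and named after its values were seen, rose by 1.01, so that 3 adjacent tested genes between chr7:15388948 and chr7:15639902 were raised. The response was not shared by every member, as *Obox6* had 577 and 347 CPM in CC_cont and 483, 782 and 613 CPM with RK-701, and *Obox8* had 85.3 and 65.7 CPM against 73.4, 144 and 93.0 CPM. In both of these the groups overlapped and the adjusted p was 0.29 and 0.31.

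Other genes of the 2-cell programme moved less. Among 31 genes linked to MERVL, the endogenous retrovirus whose repeats serve as promoters at this stage, 28 had a positive log2 fold change. The median was 0.69, but only 2 were raised (6.45%) and 1 was lowered. This lean depended on the control. Against SCNT_cont 17 were positive and 14 negative, with a median of 0.36, 4 raised and 3 lowered. Without CC_cont replicate 2 the median was 0.37. The pair raised against CC_cont was *Zfp809*, a zinc finger repressor of retroviruses (90.9 and 36.3 CPM to 120, 124 and 154 CPM, log2 fold change 1.05), and *Pramef25* (26.9 and 7.73 CPM to 37.3, 91.3 and 59.3 CPM, 1.83). *Gm2027* fell from 8.90 and 29.9 CPM to 5.03, 7.70 and 4.26 CPM, by 1.76 on the log2 scale. None of these 3 kept its call without CC_cont replicate 2 (adjusted p of 0.33, 0.30 and 0.51). Of 16 *Prame* and *Oog* genes, leucine-rich repeat genes of germ cells and early embryos, 5 were raised (31.2%), and 0 without CC_cont replicate 2. *Pramef20* and *Oog4* rose by 2.01 and 1.08 on the log2 scale. *Oog3*, the most abundant of those raised, had 2973 and 1188 CPM in CC_cont and 4614, 3985 and 4030 CPM with RK-701 (log2 fold change 1.02 ± 0.26, adjusted p = 0.021).

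Genes of the germline that somatic cells keep silent, several of them known targets of G9a in other cells, were mostly not called. Of 59 tested, 4 were raised (6.78%) and 1 lowered, and the median log2 fold change was 0.19. *Hormad1*, a protein of the meiotic chromosome axis, rose from 11.6 and 24.7 CPM to 43.9, 44.1 and 33.6 CPM (1.18 ± 0.34, adjusted p = 0.041) and stayed called without CC_cont replicate 2 (1.81, adjusted p = 0.038). *Brdt*, the testis bromodomain protein, rose from 625 and 255 CPM to 1127, 755 and 934 CPM (1.09 ± 0.24), and *Slc25a31*, a germ cell ADP/ATP carrier, from 6.41 and 3.54 CPM to 16.1, 7.87 and 18.8 CPM (1.5 ± 0.41). *Tuba3b*, a testis tubulin, was at 1.68 and 1.77 CPM against 5.78, 3.05 and 10.1 CPM (1.87 ± 0.56, adjusted p = 0.047). *Stk31*, a spermatogonial Tudor-domain kinase, fell from 47.4 and 58.9 CPM to 24.0, 19.7 and 26.9 CPM (−1.17 ± 0.22, adjusted p = 0.0024). The calls of *Brdt*, *Slc25a31*, *Tuba3b* and *Stk31* did not hold without CC_cont replicate 2 (adjusted p of 0.22, 0.32, 0.24 and 0.065). *Cstf2t*, *Terb2* were not called, *Cstf2t* at 296 and 140 CPM against 161, 236 and 218 CPM (adjusted p = 0.88).

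A few genes of DNA replication and mitosis were also among the raised, with list medians of 0.15 and 0.21 on the log2 scale. Without CC_cont replicate 2 these medians were −0.05 and 0.05. *Orc5*, a subunit of the origin recognition complex that marks where DNA replication starts, had 132 and 59.5 CPM in CC_cont and 340, 262 and 310 CPM with RK-701 (log2 fold change 1.66 ± 0.25, adjusted p = 0.00037). The IVF embryos were at 291 to 337 CPM, which the RK-701 libraries overlapped. *Gins2* and *Cdc6*, which help to load and start the replicative helicase, rose by 1.51 and 1.19 on the log2 scale, and these 3 were the raised members of 53 DNA replication genes (5.66%). Among 44 mitosis genes, *Wee2* and *Aurkc*, the Aurora kinase of germ cells (29.3 and 12.6 CPM to 52.9, 56.3 and 68.7 CPM, 1.49), were raised (4.55%). Of these 4 genes other than *Wee2*, only *Orc5* passed without CC_cont replicate 2 (1.2, adjusted p = 0.019).

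Some of the firmest raised genes belonged to no list. *Pard3*, a scaffold of cell polarity, had 167 and 156 CPM in CC_cont and 534, 454 and 460 CPM with RK-701 (log2 fold change 1.58 ± 0.17, adjusted p = 2.3e-05). *Pid1*, an adaptor that dampens insulin signalling, rose from 4.83 and 8.01 CPM to 29.1, 32.9 and 24.0 CPM (2.17 ± 0.33). *Inpp4b*, a phosphatase of phosphoinositides, rose from 2.01 and 1.21 CPM to 7.58, 14.1 and 13.3 CPM (2.81 ± 0.43). *Pld1*, which makes phosphatidic acid, *Adh5*, an alcohol dehydrogenase that also clears formaldehyde, and *Fbxo8*, an F-box protein, rose by 1.56, 1.83 and 1.37 on the log2 scale. In each of these 6 genes the controls and the treated libraries did not overlap, and each was called whichever of the 5 libraries was left out. *Cul1*, the scaffold of a ubiquitin ligase and among the most abundant raised genes, rose from 675 and 567 CPM to 1507, 1044 and 1217 CPM (1.02 ± 0.18), and fell under the 2-fold threshold without CC_cont replicate 2, at 0.90 on the log2 scale.

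**Figure D2:**
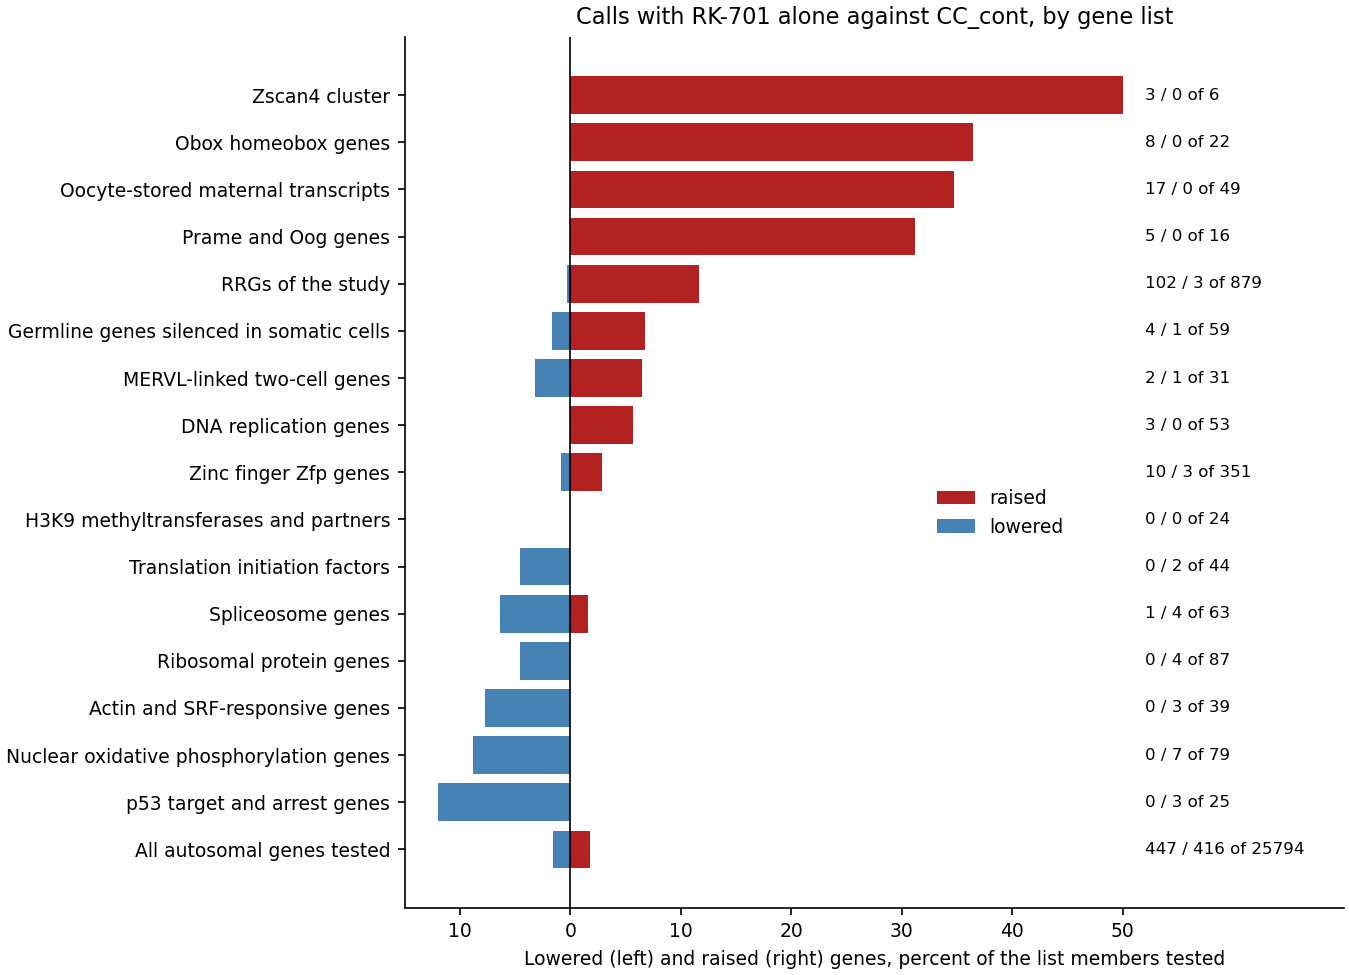
Share of the tested members of each gene list that were lowered (bars to the left) or raised (bars to the right) with RK-701 alone against CC_cont, in percent. The *Zscan4*, *Obox*, oocyte-stored and *Prame*/*Oog* lists had over 30% raised members and 0 lowered, and the lists of respiratory chain, ribosomal and actin genes had lowered members and 0 raised.

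The lowered genes are described by list. Of 87 ribosomal protein genes, 4 were lowered (4.60%, beside 1.61% of all genes) and 0 raised, but 77 had a negative log2 fold change and the median was −0.46. In 56 of the 87 every RK-701 library lay below both controls, beside 16.2% of all genes. Without CC_cont replicate 2 the count was 3 and the median −0.43, and against SCNT_cont 10 were lowered with a median of −0.64. *Rpl13* (chr8:123102350-123105244) had 128 and 161 CPM in CC_cont and 39.3, 27.2 and 29.6 CPM with RK-701, a log2 fold change of −2.17 ± 0.31 (adjusted p = 0.00019, edgeR). *Rpl38*, which in other tissues is known for selective translation, fell from 72.6 and 99.2 CPM to 24.5, 30.3 and 34.2 CPM (−1.53 ± 0.20), and *Rps2* from 92.2 and 133 CPM to 39.3, 41.9 and 45.0 CPM (−1.42 ± 0.20). These 3 were lower in every treated library than in either control and kept their calls whichever of the 5 libraries was left out, while *Rpl36al* (−1.26 ± 0.30) lost its call without CC_cont replicate 2 (adjusted p = 0.18). Ribosomal protein genes have many processed copies in the genome, and reads shared with a copy were not counted.

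Of 79 nuclear genes for oxidative phosphorylation, 7 were lowered (8.86%) and 0 raised, with a median log2 fold change of −0.32, and 7 were lowered also without CC_cont replicate 2. *Cox5a*, a subunit of cytochrome c oxidase, had 13.6 and 19.3 CPM in CC_cont and 2.55, 1.27 and 2.81 CPM with RK-701 (−2.88 ± 0.54, adjusted p = 0.0022). *Cox6a1*, of the same enzyme, fell from 116 and 130 CPM to 59.9, 46.6 and 40.5 CPM (−1.32 ± 0.23). *Ndufb2* of complex I and *Uqcrfs1*, the iron-sulfur protein of complex III, fell by 1.29 and 1.23 on the log2 scale. Other mitochondrial proteins fell with them. *Slc25a3*, the phosphate carrier, had 191 and 185 CPM against 73.9, 83.0 and 70.8 CPM (−1.31 ± 0.18), and *Chchd2*, a regulator of respiration, 390 and 367 CPM against 149, 115 and 95.2 CPM (−1.66 ± 0.28). With SCNT_cont as the control, 10 of the 79 listed genes were lowered and 0 raised. The list median was then −0.39, with 60 changes negative and 19 positive. Against SCNT_cont, where *Cox5a* was at 3.10 and 5.34 CPM, its change was −0.93 (adjusted p = 0.38), and IVF embryos held 2.49 to 12.3 CPM. *Cox6a1* (−0.63, adjusted p = 0.11), *Chchd2* (−0.82, adjusted p = 0.079), *Ndufb2* (−0.78) and *Uqcrfs1* (−0.84) were not called against SCNT_cont either, while *Slc25a3* was (−1.28). In all 6 genes CC_cont and RK-701 did not overlap, and *Ndufb2* and *Uqcrfs1* were the ones that lost their call without CC_cont replicate 2 (adjusted p of 0.12 and 0.15).

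Splicing and translation initiation were examined in the same way. Of 63 spliceosome genes, 4 were lowered (6.35%) and 1 raised. *Lsm4*, of the ring that binds U6 RNA, fell from 15.3 and 17 CPM to 4.04, 2.62 and 3.07 CPM (−2.30 ± 0.45), and *Snrpf*, of the Sm ring, from 9.28 and 9.59 CPM to 3.23, 1.44 and 1.87 CPM (−2.09 ± 0.47). Against SCNT_cont neither was called, *Lsm4* at 5.81 and 5.42 CPM there (−0.78, adjusted p = 0.38) and *Snrpf* at 2.23 and 3.67 CPM (−0.42, adjusted p = 0.70), and IVF embryos held 1.93 to 13.5 CPM of *Lsm4*. *Hnrnpl*, a splicing regulator outside that list, fell from 110 and 188 CPM to 42.9, 56.9 and 45.5 CPM (−1.62 ± 0.23, adjusted p = 0.00019). Of 44 translation initiation factors, 2 were lowered (4.55%), *Eif4g1*, the scaffold of the cap-binding complex (127 and 229 CPM to 82.2, 75.5 and 74.7 CPM, −1.2 ± 0.20), and *Eif4ebp2*, an inhibitor of cap binding (22.9 and 68.6 CPM to 19, 16.1 and 16.8 CPM, −1.39 ± 0.35). *Ubtf*, the factor that opens ribosomal RNA genes for RNA polymerase I, fell by 1.30 (adjusted p = 0.00028), and by 0.89 without CC_cont replicate 2. The calls of *Snrpf*, *Eif4g1* and *Eif4ebp2* did not hold without CC_cont replicate 2 (adjusted p of 0.066, 0.11 and 0.69).

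The gene with the firmest change among the lowered was *Hmgn1* (chr16:96120618-96127729), which encodes a small protein that binds nucleosomes and loosens chromatin. It had 243 and 275 CPM in CC_cont and 83.7, 83.5 and 83.9 CPM with RK-701, a log2 fold change of −1.63 ± 0.18 (adjusted p = 2.5e-05, edgeR). The treated libraries agreed to within 1 CPM and lay at the IVF level of 79.9 to 108 CPM. Other lowered genes were named for a small adjusted p or a large change and belong to no list tested here. *Emc6*, of the complex that inserts membrane proteins, fell from 23.4 and 33.0 CPM to 5.22, 5.84 and 5.28 CPM (−2.37 ± 0.30), *Dnajb9*, a co-chaperone of the endoplasmic reticulum, from 1225 and 1233 CPM to 481, 483 and 351 CPM (−1.49 ± 0.20), and *Pdia3*, a disulfide isomerase there, by 1.24. *Bsg*, a surface chaperone of lactate transporters, fell from 61.9 and 87.9 CPM to 21.1, 13.7 and 19.7 CPM (−2.04 ± 0.28), and *Apoe*, the lipid carrier, from 17.9 and 23.8 CPM to 2.48, 2.37 and 1.28 CPM (−3.34 ± 0.53). These 6 genes were called whichever of the 5 libraries was left out. Against SCNT_cont, *Pdia3* (−0.43, adjusted p = 0.18), *Bsg* (−0.82, adjusted p = 0.082) and *Dnajb9* (−0.75, under 2-fold) were not called. *Hmgn1*, *Emc6* and *Apoe* were called there as well (−1.01, −1.39 and −2.04).

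Stress and cytoskeletal genes followed. *Pfn1*, the actin-binding profilin, had 29.7 and 40.9 CPM in CC_cont and 8.82, 8.63 and 6.98 CPM with RK-701 (−2.11 ± 0.28, adjusted p = 0.00013). Against SCNT_cont, *Pfn1* changed by −0.86 and was not called (adjusted p = 0.076, edgeR). It was 1 of 3 lowered among 39 actin genes and targets of serum response factor (7.69%), whose median was −0.58, with *Srf* itself (13 and 28.9 CPM to 10.4, 10.1 and 9.11 CPM, adjusted p = 0.69 without CC_cont replicate 2) and *Junb* (13 and 4 reads against 0 in all 3 treated libraries, at least 2.32-fold lower at a floor of 3 reads per library). Without CC_cont replicate 2 the median of this list was −0.28. Both groups were exposed to latrunculin A, a drug that acts on actin. Of 25 p53 targets and arrest genes, 3 were lowered (12%), and 0 without CC_cont replicate 2. They were *Bax*, which drives apoptosis at mitochondria (−1.54 ± 0.28), *Gadd45a*, a DNA damage response gene (−1.30 ± 0.32), and *Ddit4*, an inhibitor of mTORC1 (−1.28 ± 0.34). *Bcl2*, which opposes *Bax*, was at 93 and 31 reads (5.05 and 2.89 CPM) in CC_cont and 8, 2 and 4 reads (0.497, 0.169 and 0.341 CPM) with RK-701 (−3.50 ± 0.80, adjusted p = 0.0093), a change that rests on few reads in the treated group.

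Single genes of other lists were lowered too. *Igf2r*, the imprinted receptor that clears IGF2, fell from 48.9 and 106 CPM to 19.9, 25.8 and 24.9 CPM (−1.72 ± 0.25, adjusted p = 0.00020) and was the only call among 43 canonical imprinted genes (2.33%). *Malat1*, a nuclear long noncoding RNA, fell from 339 and 539 CPM to 168, 217 and 183 CPM (−1.21 ± 0.19, adjusted p = 0.00053, and 0.052 without CC_cont replicate 2). *Fth1*, the heavy chain of ferritin, had 1365 and 565 CPM in CC_cont and 434, 234 and 246 CPM with RK-701 (−1.66 ± 0.37, adjusted p = 0.0081). *Mt2*, a metallothionein, fell by 1.04, *Slc7a5*, an amino acid transporter, by 1.29, and *Phc2*, a Polycomb subunit, by 1.47 on the log2 scale, and none of these 3 was called without CC_cont replicate 2 (adjusted p of 0.12, 0.66 and 0.49). Among 34 cumulus and granulosa genes only *Lgals1*, a lectin common to many cells, was lowered (2.94%), from 48.2 and 15.3 CPM to 12.4, 7.70 and 11.5 CPM. The list median was −0.35, and 0.01 without CC_cont replicate 2. The part of this list in other results was not tested. *S100a10*, an annexin partner, fell from 12.6 and 4.38 CPM to 0.807, 1.44 and 1.19 CPM (−2.89 ± 0.84, adjusted p = 0.040, and 0.073 without CC_cont replicate 2).

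Several lists gave no call. They were the 42 proteasome subunits, the 27 genes of sterol synthesis, the 26 autophagy and lysosome genes, the 28 clustered histone genes and the 8 genes imprinted through H3K27 trimethylation, with median log2 fold changes between −0.26 and 0.12. Interferon and antigen presentation genes gave 2 raised of 38 (5.26%), *Irf1* (17.6 and 10.3 CPM to 38.8, 27.3 and 41.3 CPM) and *Ifitm3* (7.82 and 3.54 CPM to 21.5, 14.3 and 18.5 CPM), with a list median of 0.10, and neither was called without CC_cont replicate 2. Among 32 regulators of totipotency and early lineages, 2 were raised (6.25%) and 1 lowered (3.12%), with a median of −0.06 and no call without CC_cont replicate 2. *Zfp42*, also called Rex1, rose by 1.23 ± 0.32 (adjusted p = 0.020). *Gata2*, a factor of trophoblast and blood, rose from 0.109 and 0 CPM to 0.994, 3.30 and 0.341 CPM (adjusted p = 0.0165), and *Rarg*, a retinoic acid receptor, fell from 22.1 and 34.2 CPM to 11.3, 15 and 11 CPM (−1.18 ± 0.25, adjusted p = 0.0063). Zinc finger *Zfp* genes gave 10 raised and 3 lowered of 351 (2.85% and 0.855%), near the shares over all genes.

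Both groups came from female donors, so the X chromosome could be compared. Of 1010 X-linked genes tested, 33 were called (3.27%), 22 raised (2.18%) and 11 lowered (1.09%), near the autosomal share, and 5 were called without CC_cont replicate 2. *Scml2*, a Polycomb-related germline gene, had 68.0 and 64.6 CPM in CC_cont and 207, 157 and 171 CPM with RK-701 (1.43 ± 0.17, adjusted p = 2.8e-05), and *Upf3b*, a factor of nonsense-mediated decay, fell from 208 and 225 CPM to 98.6, 110 and 99.2 CPM (−1.08 ± 0.16). Both held without CC_cont replicate 2, while the change of *Fundc1*, given below, was then 0.88, under the 2-fold threshold. The glucose enzymes *G6pdx* and *Pgk1* rose by 1.56 and 1.12 (adjusted p of 0.053 and 0.28 without CC_cont replicate 2), and *Fundc1*, a mitophagy receptor, by 1.05. *Xist*, the RNA that coats the inactive X, had 42.8 and 73.6 CPM in CC_cont and 19.7, 29.2 and 17.5 CPM with RK-701 (−1.39 ± 0.39, adjusted p = 0.034, and 0.40 without CC_cont replicate 2).

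Raised and lowered genes differed in base composition, which the call did not use. The median GC content of the longest annotated transcript was 46.8% for raised, 52.6% for lowered and 48.3% for all tested genes. The tested genes were split by GC content into 5 groups of equal size. In the group with the highest GC (54.2% to 78.3%), 0.777% were raised and 3.50% lowered, while in the group with the second lowest 2.49% were raised and 0.932% lowered. GC content can alter how well a transcript is amplified and counted, and its part in these calls was not tested beyond a fit with a GC and length offset. That fit gave 392 raised and 472 lowered genes, of which 353 and 317 were shared with the 447 raised and 416 lowered genes above. The upstream windows of 300 bases around the RefSeq start, available for 293 raised, 286 lowered and 14469 tested genes, differed in the same way. The CpG ratio, observed over expected from base composition, had a median of 0.476 for raised, 0.817 for lowered and 0.673 for all genes, and 39.6%, 83.2% and 56.8% of windows had a ratio over 0.6.

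**Figure D3:**
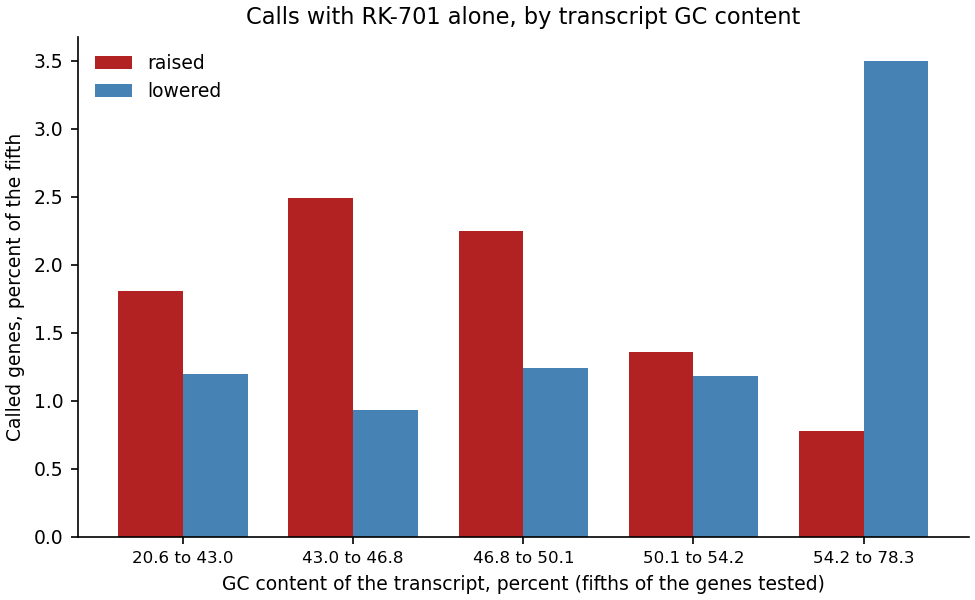
Share of genes raised and lowered with RK-701 alone, in percent, in 5 equal groups of the tested genes by GC content of the longest annotated transcript. Lowered genes were 3.50% of the group with the highest GC and between 0.932% and 1.24% of the others, and raised genes were 0.777% of that group and up to 2.49% of the others.

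This contrast is shown in letters for 3 genes, chosen after their values were seen, with CpG dinucleotides in capitals. Each line holds 130 bases in the direction of transcription, from 150 to 21 bases before the RefSeq start (GRCm38.p6). *Zscan4d*, raised, had 3 CpG in this stretch, and *Hmgn1* and *Rpl13*, lowered, had 14 each. The lowered *Pfn1* had 8, with a CpG ratio of 0.6, and is not shown because its stretch overlaps an annotated exon.
Zscan4d (chr7:11166169-11166298, minus strand): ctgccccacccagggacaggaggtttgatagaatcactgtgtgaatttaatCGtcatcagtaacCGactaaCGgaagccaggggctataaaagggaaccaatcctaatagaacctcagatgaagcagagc
Hmgn1 (chr16:96127746-96127875, minus strand): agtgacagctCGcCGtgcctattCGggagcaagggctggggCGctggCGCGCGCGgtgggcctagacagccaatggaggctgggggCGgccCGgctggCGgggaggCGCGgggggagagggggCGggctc
Rpl13 (chr8:123102200-123102329, plus strand): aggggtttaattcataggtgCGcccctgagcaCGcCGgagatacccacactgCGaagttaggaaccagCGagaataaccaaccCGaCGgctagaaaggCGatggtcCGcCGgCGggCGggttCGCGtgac

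Motifs were counted on both strands of the windows. The E-box CACGTG was in 6.14% of raised, 12.9% of lowered and 8.84% of all windows, the E2F-like TTCCCGC in 5.80%, 6.64% and 7.10%, the TATA box TATAAA in 11.3%, 8.04% and 9.71%, and the homeodomain core GGATTA in 7.51%, 5.94% and 6.46%. A match is a stretch of letters, and the E-box and the E2F-like motif each hold a CpG.

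The same inhibitor had been added to TSA in libraries that share none with the comparison above, so that the direction could be set beside it. Of the 447 raised genes, 287 (64.2%) also had a positive log2 change when RK-701 was added to TSA, beside 45.7% of all genes, and 34 were called in the same direction (7.61%, beside 2.28%) and 3 in the opposite one. Of the 416 lowered genes, 316 (76%) had a negative change, beside 51.4% of all genes, with 15 called in the same direction (3.61%, beside 0.806%) and 1 in the opposite one. The shares over all genes in this paragraph were not matched for GC content. All tested genes of the group with the highest GC had a median of −0.28 with RK-701 alone and −0.34 when it was added to TSA. In the other GC groups the medians were −0.02 to 0.07 and −0.05 to 0.04. The part of GC content in the shared direction was not tested. With A366 added to TSA, a different G9a/GLP inhibitor in other libraries against the same TSA controls, 345 of the raised (77.2%, beside 44.5%) and 378 of the lowered (90.9%, beside 52.5%) had the same sign, and 37 and 22 were called in the same direction (8.28% and 5.29%, beside 1.43% and 0.485% of all genes, 1.91% in all). The number of calls that RK-701 shared between both settings moved with single control libraries, from 49 in all to 7 and 309 without CC_cont replicates 2 and 1, and to 1 and 95 without TSA replicates 1 and 2.

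Members of the *Zscan4* and *Obox* families were raised in both settings, 3 of 6 and 8 of 22 with RK-701 alone and 2 of 6 and 8 of 22 when it was added to TSA. With TSA, *Zscan4a* went from 3.39 and 6.42 CPM to 24.6 and 26.6 CPM when RK-701 was added (log2 fold change 2.37, adjusted p = 0.00076), and *Obox3* from 29.1 and 59.5 CPM to 151 and 144 CPM (1.73, adjusted p = 0.0011). The 6 *Zscan4* genes had a median of 2.16 and the 22 *Obox* genes of 1.17 with TSA. *Obox6*, *Obox8*, *Cstf2t* and *Terb2*, which were not called with RK-701 alone, were raised when it was added to TSA, by 1.30, 1.65, 1.80 and 1.13 on the log2 scale. Among the lowered genes, *Malat1* and *Eif4g1* fell by 1.41 and 1.36 with TSA as well.

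The oocyte-stored, ribosomal and respiratory chain lists are set beside this. With TSA, RK-701 raised 1 and lowered 1 of the 49 oocyte-stored genes, with a median of 0.15. *Wee2* was at 291 and 317 CPM with TSA and 308 and 234 CPM with both drugs, and *Hmgn1* at 210 and 179 CPM against 158 and 234 CPM, so in both genes the groups overlapped. The ribosomal protein genes had a median of 0.42 and the respiratory chain genes of 0.54 with TSA, opposite in sign to RK-701 alone. The difference between the settings was tested as an interaction in the same fit, and 594 genes passed (2.30%, adjusted p under 0.05), among them 10 of the 49 oocyte-stored, 35 of the 87 ribosomal and 20 of the 79 respiratory chain genes. For *Wee2* the difference was −1.68 ± 0.27 (adjusted p = 0.0027) and for *Hmgn1* 1.64 ± 0.28 (adjusted p = 0.0038). Of the called genes, 103 raised and 67 lowered passed this test, and in all of them the effect was smaller or opposite with TSA, a direction favoured by the choice of genes on 1 of the effects. The interaction also leaned on single libraries, as 9 genes passed without replicate 2 of TSA with RK-701, 99 without TSA replicate 1 and 1109 without CC_cont replicate 2.

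**Figure D4:**
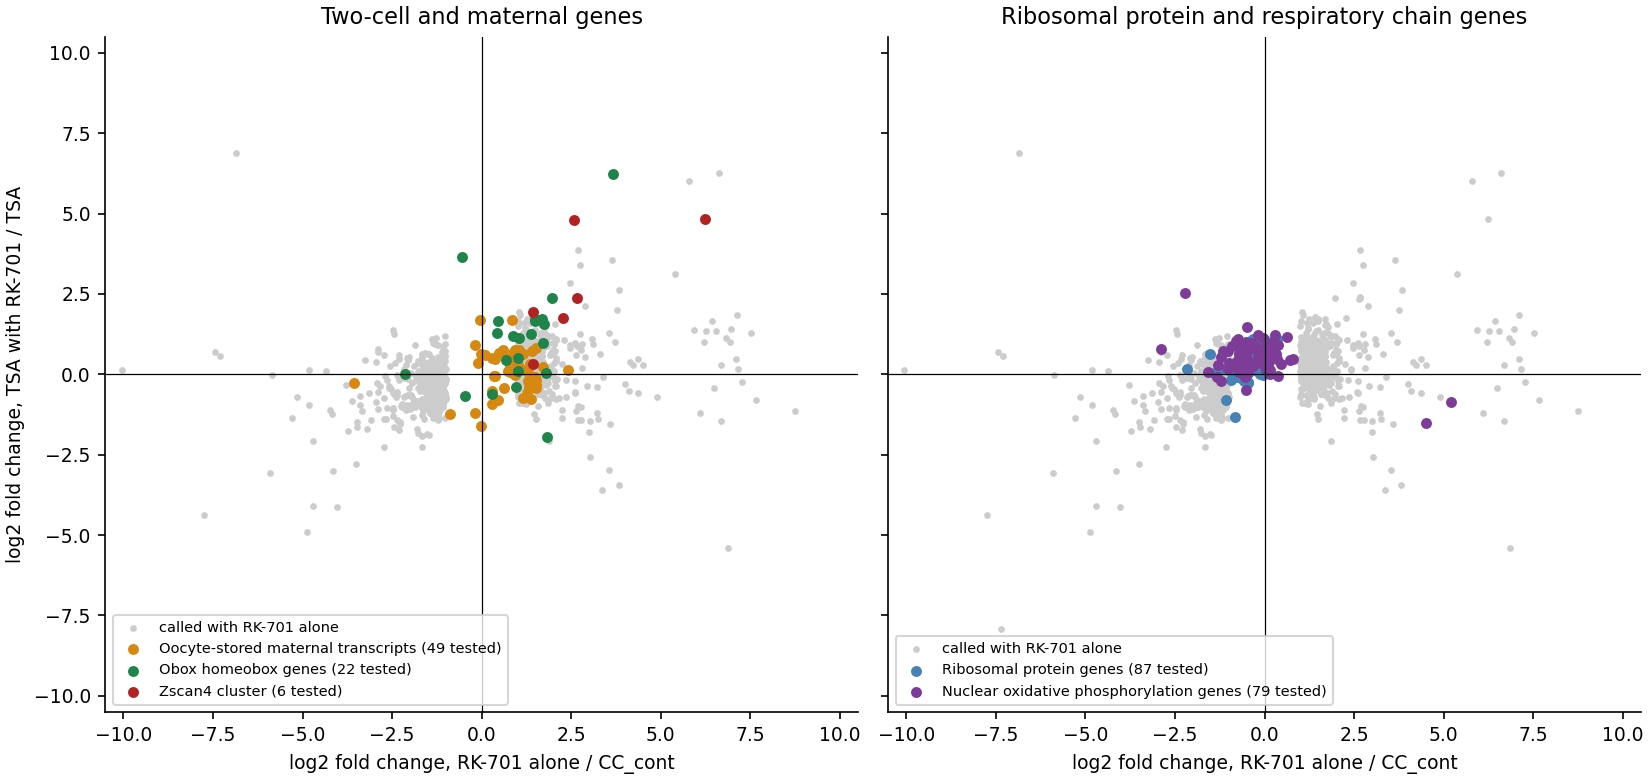
Log2 fold change of each called gene (grey points) with RK-701 alone (x axis) and with RK-701 added to TSA (y axis), with all tested members of 5 gene lists in colour, called or not. In the left panel *Zscan4* and *Obox* genes lay mostly in the upper right and oocyte-stored genes to the right and on both sides of 0 on the y axis, and in the right panel ribosomal and respiratory chain genes lay mostly to the left of 0 and above it.

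A366 and RK-701 were given at the same 1 µM for the same 24 h, and the difference between them could be tested directly. Of 25794 genes, 2083 differed between A366 alone and RK-701 alone (8.08%), 1025 higher (3.97%) and 1058 lower (4.1%) with A366. Against the same CC_cont libraries, A366 alone gave 31 calls (0.12%), 21 raised (0.0814%) and 10 lowered (0.0388%). *Wee2* was at 274 and 368 CPM with A366, near its control level and lower than with RK-701 by 1.70 on the log2 scale (adjusted p = 1.6e-06, edgeR). *Zscan4a* was at 5.29 and 10.4 CPM with A366, lower by 1.66 than with RK-701 (adjusted p = 0.00062), and *Hmgn1* at 272 and 218 CPM, higher by 1.55 (adjusted p = 3.5e-06). *Wee2* and *Hmgn1* were named for their change with RK-701, and the same RK-701 libraries enter this difference. Their small p-values here were favoured by that choice. How far each inhibitor lowered histone methylation in these embryos was not tested here.

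SCNT_cont and IVF embryos, none of whose libraries is in the comparison of RK-701 with CC_cont, showed where the called genes stood in untreated clones. In SCNT_cont, 228 of the 447 raised genes (51%, beside 6.82% of all genes) were lower than in IVF embryos, and 10 were higher. The genes behind the shares over all genes were not matched to the called genes for level. Of the 416 lowered genes, 92 (22.1%, beside 8.17%) were higher than in IVF embryos and 25 were lower (6.01%, beside 6.82%). For the 228 raised genes that clones lacked, the RK-701 mean was still below the IVF range in 135, within it in 65 and above it in 28. For the 92 lowered genes that clones had in excess, it was above the IVF range in 44, within it in 39 and below it in 9. The 25 lowered genes that clones already lacked were all below the IVF range with RK-701. Among the other 299 lowered genes the RK-701 mean was below the IVF range in 218, within it in 80 and above it in 1, and among the other 219 raised genes it was above the range in 135, within it in 64 and below it in 20.

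The level of all called genes was also summarised per library. The median log2(CPM + 1) of the raised genes was 3.97 and 3.42 in CC_cont, 5.09, 5.06 and 5.04 with RK-701 and 4.88 to 5.09 in IVF embryos. That of the lowered genes was 3.88 and 4.58 in CC_cont, 3.08, 3.09 and 3.02 with RK-701 and 3.36 to 3.45 in IVF embryos. In SCNT_cont the medians were 3.815 and 4.056 for the raised and 3.943 and 3.879 for the lowered genes. For both sets of genes they were nearer to CC_cont replicate 1 than to CC_cont replicate 2. On these genes CC_cont replicate 2 was the control further from RK-701, which the choice of genes favoured. The nearness therefore does not show which control is typical. The difference between CC_cont and RK-701 was used to choose these genes, whereas the SCNT_cont, IVF and A366 levels were not. With A366 alone the medians were 3.96 and 3.90 for the raised and 4.36 and 4.25 for the lowered genes, within the range of CC_cont.

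**Figure D5:**
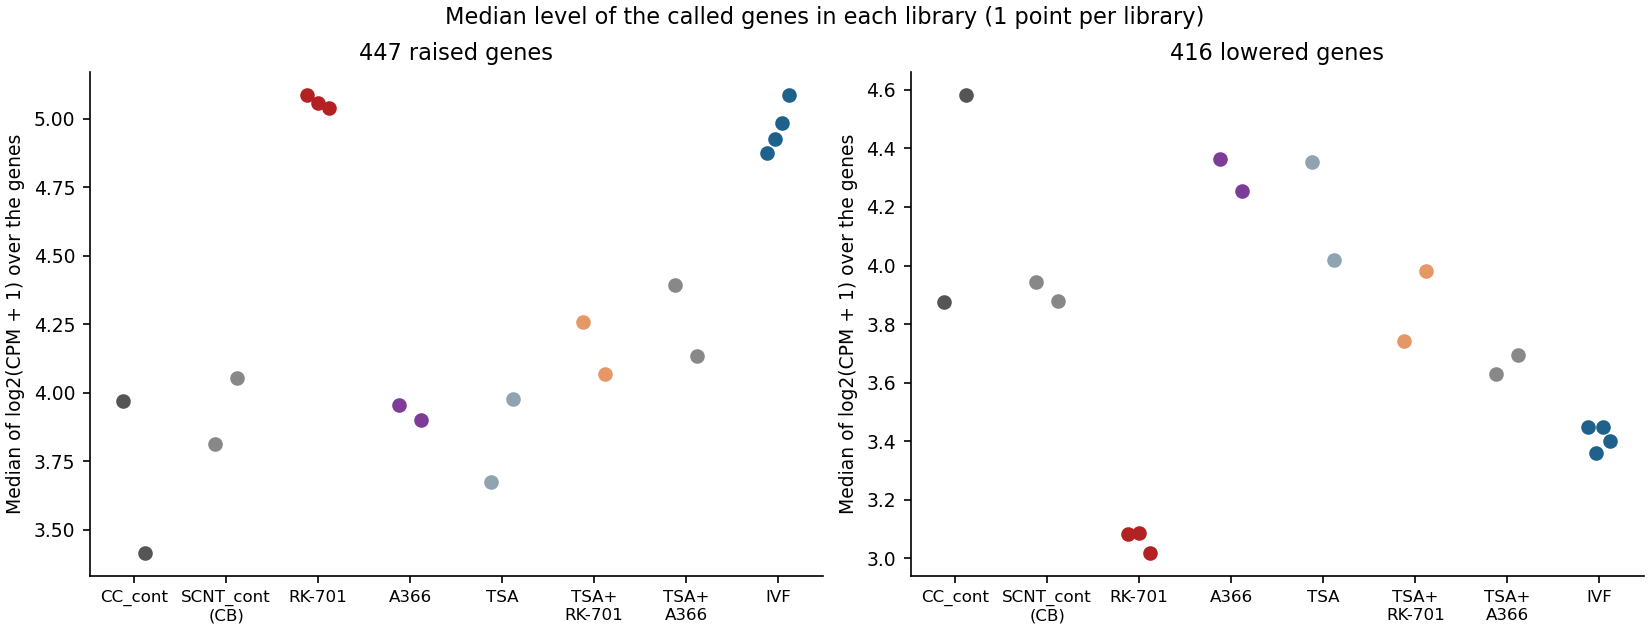
Median of log2(CPM + 1) over the 447 raised and the 416 lowered genes, with 1 point per library in each group. The CC_cont and RK-701 points differ by the choice of genes, and the IVF libraries lay at 4.88 to 5.09 for the raised genes, close to RK-701, and at 3.36 to 3.45 for the lowered genes, between RK-701 and CC_cont.

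The study's 879 reprogramming-resistant genes (RRGs) are genes that rose towards the 2-cell stage in fertilised embryos of an earlier dataset. They were also chosen for lower levels in untreated clones than in IVF embryos of this series. With RK-701 alone 102 were raised (11.6%) and 3 lowered, with a median log2 fold change of 0.59. Because that choice used these libraries, the count is not independent evidence of the direction. Without CC_cont replicate 2 it was 20. Of the raised RRGs, 71 were among the 228 raised genes that were lower in SCNT_cont than in IVF embryos. RRGs were chosen for lower levels in clones than in IVF embryos, so this overlap was favoured by that choice.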

How the data were processed

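Poly(A) RNA of pooled 2-cell embryos was amplified with a SMART-Seq kit and sequenced in pairs. Trimmomatic for trimming and STAR for alignment to mm10 were used by the authors, who kept uniquely placed pairs and counted them with featureCounts 1.6.2 without strand, so a gene and its antisense partner cannot be told apart and near-identical copies lose reads. The deposited table holds raw counts, not normalized, of 55375 genes and 1755056 repeat copies. Gene rows were used here, of which 55134 matched GENCODE M21.

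TMM factors were computed, and a single quasi-likelihood fit with 11 group terms covered all 25 libraries, in edgeR 4.0.16 (limma 3.58.1, R 4.3.3, Python 3.11.15), so the groups of 2 libraries drew on the spread of all groups. As in the study, sex chromosomes were left out and so were genes averaging under 1 read per library, which left 25794. A call needed a Benjamini-Hochberg adjusted p under 0.05 over all tested genes and a fold over 2. X-linked genes were tested with the X chromosome added. Errors are SE of the fit. Bounds for genes at 0 reads use a floor of 3 reads per library and hold counting error alone, because amplified copies carried no molecular identifiers. Library depths were 9259726 to 16604899 pairs, which leaves genes at few reads imprecise. No pair of replicates agreed within sampling noise.

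Gene lists were described by counts and medians beside those of all genes. Genes were named by rule: those the study names, the called genes with known names and the largest fold changes, smallest adjusted p or highest levels, and the leading called members of each list and of the X chromosome. The comparison, the lists and the rule were chosen with earlier results of these data known. Alternatives were DESeq2 1.42.0, other size factors, other filters on low counts, a fit of the 5 libraries alone, other controls, a replicate term, and each library left out. Fits with a GC and length offset, and the list counts under other controls, were added after seeing the data. The scripts were tested on simulated counts. Upstream windows came from RefSeq (GRCm38.p6). Repeat copies and the *Kdm3a*, *Kdm4d* and UNC0638 libraries were not analysed here beyond their part in the fit. Some results are not reported here.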

Additional observations from a re-analysis of the deposited data

Results flagged for a closer look

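The effect of RK-701 on the log2 scale differed between embryos with and without TSA for 594 autosomal genes, by the interaction term of the same edgeR fit (adjusted p under 0.05). The values below give the effect with TSA minus the effect without it, for the genes named above that passed, and the number that passed fell to 9 without replicate 2 of TSA with RK-701. Among the oocyte-stored and *Tcl1* cluster genes it was −1.68 for *Wee2*, −1.85 for *Btg4*, −2.13 for *Oosp1*, −1.09 for *Omt2a*, −1.59 for *Omt2b*, −1.93 for *Tcl1b1*, −1.48 for *Tcl1b2*, −2.13 for *Tcl1b3*, −2.35 for *Tcl1b4* and −2.41 for *Tcl1b5*. Among other raised genes it was −1.11 for *Cul1*, −1.80 for *Pard3*, −1.34 for *Fbxo8*, −1.71 for *Pld1*, −1.94 for *Adh5*, −2.91 for *Pid1* and −2.62 for *Inpp4b*. Among germline genes it was 1.89 for *Cstf2t*, 1.2 for *Terb2*, −3.96 for *Tuba3b* and 1.55 for *Stk31*.

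Among the lowered genes for translation, RNA processing and respiration the difference was 2.34 for *Rpl13*, 2.15 for *Rpl38*, 1.46 for *Rps2*, 3.68 for *Cox5a*, 1.58 for *Ndufb2*, 2.90 for *Lsm4*, 2.60 for *Snrpf*, 1.40 for *Hnrnpl*, 1.59 for *Slc25a3* and 2.19 for *Chchd2*. Among the other lowered genes it was 2.40 for *Pfn1*, 1.67 for *Bax*, 1.64 for *Hmgn1*, 1.16 for *Dnajb9*, 2.33 for *Emc6*, 1.6 for *Bsg*, 1.33 for *Igf2r* and 2.29 for *Fth1*. On the X chromosome it was −1.43 for *Scml2*, −1.58 for *G6pdx* and 1.26 for *Upf3b*.

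One IVF library stood far from the others in 1 of the 8 genes whose IVF level was examined. *Wee2* was at 635 CPM in that library and at 797, 806 and 822 CPM in the others, a gap that chance gives in about 1 group of 20.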

How the results depend on the processing

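The calls depended most on which control libraries were used. Leaving out 1 library at a time gave 177 to 2268 called genes, 89 to 1285 raised, 88 to 983 lowered, 20 to 173 raised RRGs and 5 to 80 X-linked calls, with the lowest of each without CC_cont replicate 2 and the highest without CC_cont replicate 1. In the same way 1 to 309 called genes were called in the same direction when RK-701 was added to TSA, and 9 to 1109 genes passed the interaction. A fit of the 5 libraries alone gave 212 calls (121 raised, 91 lowered), 19 raised RRGs and 12 X-linked calls. The replicate block gave 528 calls (271 raised, 257 lowered), 54 raised RRGs, 20 X-linked calls, 25 calls shared with the addition to TSA and 271 interactions. Same-numbered libraries did not deviate together, however (correlations of 0.0097 and −0.039 for the 2 shared numbers), so they share only a number. With the mean of CC_cont and SCNT_cont as the control, 741 genes were raised. DESeq2 gave 54 X-linked calls, 103 calls shared with the addition to TSA and 1392 interactions, and no filter on low counts gave 63 X-linked calls. The cause of these shifts was not tested. Raised genes were 51.8% of calls, 63% against SCNT_cont, 61.4% against the mean of both controls and 45.4% with the GC and length offset, which was chosen after seeing the data. Other size factors, the stricter filter, and the sex chromosomes included left the autosomal counts within 1.5 times. In the 447 raised genes none changed sign under any setting except against SCNT_cont, where 430 kept it. Without CC_cont replicate 1 the median log2 change of all genes was 0.12. Of the 93 named genes, 49 passed with all libraries and not without CC_cont replicate 2, 40 no longer passed with SCNT_cont as the control and 38 in the fit of the 5 libraries alone. The changes of sign were *Obox8* (−0.07) and *Fundc1* (−0.14) against SCNT_cont, *Cstf2t* (−0.53 to 0.55 over the left-out libraries, 0.06 without RK-701 replicate 1 and 0.55 without CC_cont replicate 1), *Terb2* (−0.37 to 0.32, the latter without CC_cont replicate 1), and *Ehmt2* with the GC and length offset (0.34). Depth limited genes under about 1 CPM, such as *Zscan4b*, *Bcl2* and *Junb*.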
